A study of Mus musculus with 2 samples.

Results

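The genes described here encode the respiratory chain and ATP synthase of mitochondria, and the proteins that assemble them. They were chosen by symbol: symbols starting mt-Nd, mt-Co, mt-Atp, mt-Cytb, Ndufa, Ndufb, Ndufc, Ndufs, Ndufv, Sdh, Uqcr, Cox4 to Cox8 or Atp5, without pseudogenes. The rule found 110 of the 31053 genes in the matrix. Of these, 13 are encoded by mitochondrial DNA and 97 by nuclear DNA. The nuclear members are 84 subunit genes, 12 assembly factors (Ndufaf and Sdhaf genes) and Atp5s, which is not a structural subunit of the enzyme.

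The cells were LSK cells (lineage-negative, Sca-1-positive, c-Kit-positive bone marrow cells, the compartment that holds hematopoietic stem cells and multipotent progenitors) of C57BL/6JRj mice. Old mice were 22 to 28 months and young mice 3 to 5 months of age, untreated and without a transgene in the labels, and each age gave 1 library. The study's methods state that several mice of each age were used, and no label ties a cell to a mouse. CITE-Seq was used, which counts transcripts and antibody tags in the same cell as unique molecular identifiers (UMIs).

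The ending of each barcode, 1 or 2 and called suffix here, gives its library, and no source used here pairs an ending with an age. Ages were therefore not compared, and the values of each suffix are given as a check. Each library is of 1 age, so age and technique cannot be told apart in a difference between suffixes. With 1 library per age there is no replicate of any condition, so no test was run. All intervals are 95% intervals that cover counting error only.

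Of 4688 cells, 4068 held under 10% mt- UMIs and over 1500 genes, and 3986 of them had tag values, 1497 of suffix 1 and 2489 of suffix 2. The suffixes shared 0 barcodes. These cells were divided by tags into 4 gates, with CD150 high at or above its 75th percentile and CD48 low at or under its 25th percentile within each suffix. CD150-high CD48-low is the SLAM phenotype used to enrich stem cells, and this gate held 555 cells. The CD150-low CD48-low gate held 454 cells, the CD150-high CD48-high gate 450 and the CD150-low CD48-high gate 2527. The last, the largest, was the reference for the other 3, which therefore share their reference cells. The tag limits differed between the libraries: the CD150 cut lay at 40 tags in suffix 1 and 407 in suffix 2, and the CD48 cut at 224 and 42.

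Complexes I, III and IV of the chain pump protons across the inner mitochondrial membrane while electrons pass from NADH or succinate to oxygen, and complex V, the ATP synthase, uses the gradient to make ATP. Complex II, succinate dehydrogenase, is the only one of them with no subunit encoded in mitochondrial DNA, so the other complexes are built from products of both genomes. Long-term stem cells are known as quiescent cells that rely comparatively little on oxidative phosphorylation, whereas cycling progenitors use it more.

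The library was primed on poly(A) tails and read near the 3′ end, so what is counted is expected to lie close to a tail. A tail need not follow the last bases of each gene, since mt-Atp8 and mt-Nd4l end inside the next gene on the same strand. For mt-Nd6 the place of the tail is not known here. The ends of 6 mitochondrial coding sequences are shown because the results below turn on these genes. Each is given 5′ to 3′ on the coding strand in GRCm38 (GENCODE vM21), and the capitals mark the stop, or the part of it that is encoded.
mt-Nd1: tttacagcgggagtaccaccatacataTAG
mt-Nd2: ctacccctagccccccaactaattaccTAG
mt-Co1: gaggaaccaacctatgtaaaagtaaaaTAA
mt-Atp8: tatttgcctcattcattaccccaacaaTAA
mt-Nd6: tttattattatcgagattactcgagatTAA
mt-Cytb: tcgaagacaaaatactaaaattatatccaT
The genes lie at chrM:2751-3707 (mt-Nd1), chrM:3914-4951 (mt-Nd2), chrM:5328-6872 (mt-Co1), chrM:7766-7969 (mt-Atp8), chrM:13552-14070 (mt-Nd6, the only member on the minus strand) and chrM:14145-15288 (mt-Cytb). In 10 of the 13 the stop is complete. In mt-Co3, mt-Nd4 and mt-Cytb only its T is encoded, and the stop is completed when the tail is added. The last bases of mt-Atp8 lie inside mt-Atp6, with which it shares 43 bases on the same strand, mt-Nd4l shares 7 with mt-Nd4, and mt-Nd5 and mt-Nd6 overlap by 14 on opposite strands. UMIs of the pairs on the same strand can be split by the counting, so the values of mt-Atp8 and mt-Nd4l, which also have few UMIs, are uncertain. For mt-Nd6 this holds only if strand was not used in counting, which is not stated in the sources used here.

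Mitochondrial transcripts took a larger share of UMIs in the CD150-high CD48-low cells than in the reference, and nuclear subunit transcripts a smaller one. The 13 mitochondrial genes summed to 6.65% of UMIs (6.50% in suffix 1 and 6.71% in suffix 2) against 5.78% (5.75% and 5.81%). The ratio was 1.149 (1.145 to 1.152), with 1.13 in suffix 1 and 1.16 in suffix 2. The nuclear subunits summed to 1.75% (1.88% and 1.69%) against 2.20% (2.20% and 2.20%), a ratio of 0.796 (0.792 to 0.801), with 0.856 in suffix 1 and 0.771 in suffix 2. The mitochondrial share of both libraries lay above, and the nuclear share below, those of the reference.

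Per cell, rather than per UMI, both genomes gave fewer transcripts in the CD150-high CD48-low cells, so the higher mitochondrial level holds only relative to total UMIs. These cells held a mean of 900.3 mitochondrial and 237 nuclear subunit UMIs, against 1110 and 422 in the reference, and the ratios per cell were 0.811 and 0.562. Median depth was 13334 UMIs per cell against 16343. UMIs cannot tell a smaller cell with less RNA from a less efficiently captured one.

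The other gates lay between these values. The mitochondrial share was 6.53% (6.43% and 6.62%) in CD150-low CD48-low cells and 6.22% (5.97% and 6.48%) in CD150-high CD48-high cells. In the order of levels, the ranges over the 2 libraries overlapped between the first and the second gate and between the second and the third, but not between the CD150-high CD48-high cells and the reference. The nuclear subunit share was 1.82% (1.89% and 1.77%) in CD150-low CD48-low and 2.01% (2.18% and 1.85%) in CD150-high CD48-high cells, and again only the reference lay outside the range of its neighbour. Mitochondrial UMIs per nuclear subunit UMI were 3.80 in CD150-high CD48-low, 3.58 in CD150-low CD48-low, 3.09 in CD150-high CD48-high and 2.63 in CD150-low CD48-high cells.

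**Figure D1:**
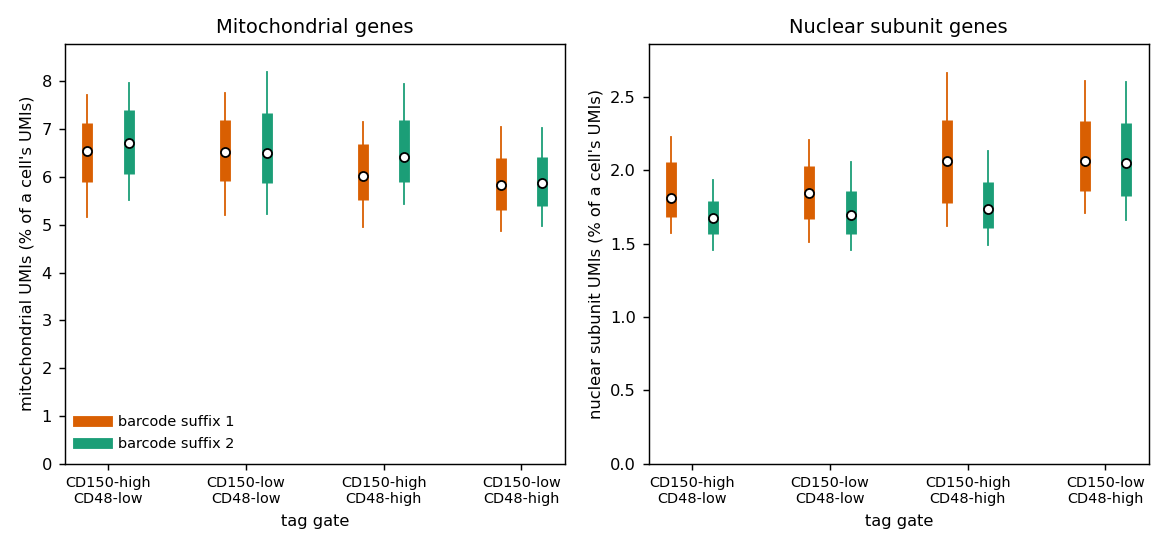
Share of each cell's UMIs (y axes, %) from the 13 mitochondrial genes (left) and the 84 nuclear subunit genes (right) in the 4 tag gates (x axis), with the median (white point), the quartiles (thick bar) and the 10th to 90th percentile (thin line) over cells of each barcode suffix. The median mitochondrial share was 6.67% in CD150-high CD48-low and 5.86% in CD150-low CD48-high cells of both suffixes, and the median nuclear share 1.704% and 2.05%; per cell, and not per UMI, both were lower in the former.

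Single cells overlapped widely. The 10th to 90th percentile of the nuclear subunit share ran from 1.48% to 2.05% in CD150-high CD48-low cells and from 1.67% to 2.60% in the reference. For the mitochondrial share it ran from 5.44% to 7.89% and from 4.94% to 7.04%. Over the 3986 cells the 2 shares had a Spearman's rho of -0.42, and of -0.37 when mitochondrial UMIs were left out of the denominator of the nuclear share. Within the gates rho was -0.10 in CD150-high CD48-low, -0.16 in CD150-low CD48-low, -0.42 in CD150-high CD48-high and -0.38 in CD150-low CD48-high cells. With mitochondrial UMIs left out of the denominator these became -0.02, -0.09, -0.38 and -0.34. The points share their libraries, and both shares moved with depth: over all cells rho with UMIs per cell was -0.37 for the mitochondrial and 0.56 for the nuclear share.

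Among the mitochondrial genes, the 2 at the start of the map, unlike the rest, had ratios below 1 with both libraries summed. A gene was called when its ratio of UMIs per 1e+06 UMIs (CPM) passed 1.2-fold in the same direction in both libraries, among 6247 genes with at least 20 CPM over all cells. Of all genes tested, 24.5% were called lower and 12.1% higher in CD150-high CD48-low cells, and their median ratio was 0.915, so ratios near that value are near the middle of all genes. Of the 13 mitochondrial genes 0 were called lower and 2 higher, a share close to that of all genes. The ratio was above 1 in 11 of the 13. This count was 9 in cells under 5% mt- UMIs with over 2500 genes, and 9 with gates at the 90th and 10th percentiles. It was 10 without cells with a cycling marker UMI and 10 in suffix 2 alone.

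mt-Co1, the catalytic subunit of cytochrome c oxidase, stood at 11974 CPM in suffix 1 and 13448 in suffix 2 of the CD150-high CD48-low cells, against 10190 and 10052 in the reference. Its ratio was 1.29 (1.28 to 1.30), 1.18 and 1.34 by suffix, so that it missed the call in suffix 1. mt-Cytb, the cytochrome b of complex III, stood at 6825 and 6939 CPM against 5772 and 5889, a ratio of 1.18 in each suffix. mt-Atp6, the proton channel subunit of ATP synthase, had a ratio of 1.18, mt-Co3 of 1.15 and mt-Co2, which receives the electrons from cytochrome c, of 1.13. For these 5 genes the ratio was above 1 in both libraries, as it was for 1867 of all 6247 genes.

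The 2 called genes are sparse. mt-Nd6, a complex I subunit, stood at 37.7 and 41.4 CPM against 30.3 and 28.9 (ratio 1.37, 1.21 to 1.55). mt-Atp8, the small ATP synthase subunit, stood at 39.5 and 38.7 CPM against 32.7 and 30.7 (ratio 1.24, 1.09 to 1.41). mt-Atp8 is among the genes whose counts can be split with a neighbour on the same strand. Whether the counts of either gene come from its printed end was not tested.

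mt-Nd1, a core membrane subunit of complex I, stood at 2291 CPM in suffix 1 and 2029 in suffix 2, against 2406 and 2640 in the reference. Its ratio was 0.825 (0.811 to 0.839), 0.952 in suffix 1 and 0.769 in suffix 2. mt-Nd2, of the same membrane arm, stood at 2128 and 1756 CPM against 2161 and 2108 (ratio 0.878, 0.862 to 0.894). Both lay below the reference in both libraries, more so in suffix 2. Apart from mt-Nd6, the other complex I genes had ratios of 1.01 for mt-Nd3, 1.16 for mt-Nd4l, 1.08 for mt-Nd4 and 1.09 for mt-Nd5, and mt-Nd3 changed side between suffixes (1.13 and 0.95).

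As shares of the mitochondrial UMIs alone, which do not depend on nuclear transcripts, mt-Co1 made up 19.6% in CD150-high CD48-low cells, 18.9% in CD150-low CD48-low, 18.5% in CD150-high CD48-high and 17.5% in the reference. mt-Nd1 made up 3.17%, 3.47%, 3.90% and 4.42% in the same order. These orders did not hold in suffix 1, where mt-Co1 made up 18.4%, 18.6%, 17.6% and 17.7% and mt-Nd1 3.52%, 3.69%, 4.37% and 4.19%. mt-Co3 (21.1%, 21.3%, 20.9% and 21.1%) and mt-Co2 (14.4%, 14.5%, 14.6% and 14.6%) held nearly the same share in every gate.

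**Figure D2:**
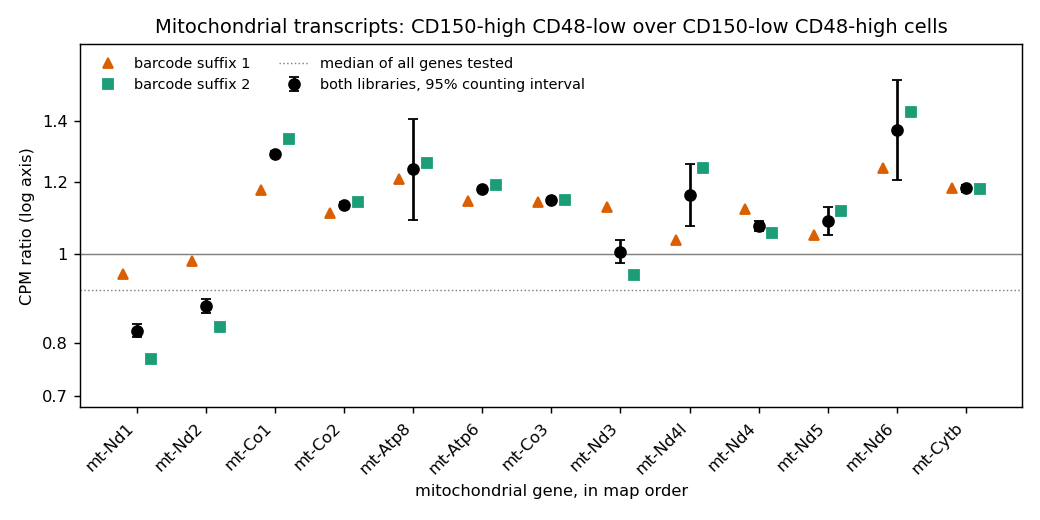
Ratio of CPM in CD150-high CD48-low over CD150-low CD48-high cells (y axis, log scale) for the 13 mitochondrial genes in map order (x axis), for both libraries with 95% counting intervals (black) and for each barcode suffix (coloured). On this axis 11 genes lie above 1, from 1.01 (mt-Nd3) to 1.37 (mt-Nd6), and mt-Nd1 and mt-Nd2 lie below; on the scale of UMIs per cell 0 of the 13 lie above 1.

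The nuclear subunits lay lower as a group, with a spread from 0.494 to 1.40. Of the 97 nuclear members, 86 reached 20 CPM (76 subunits and 10 assembly factors). Of these 86, 30 (34.9%) were called lower, against 24.5% of all genes, and 1 (1.16%) higher, against 12.1%. The excess of lower members was lost without cells that held a cycling marker UMI (8 of 85, beside 13.7% of all genes). It was also lost with a stricter cell filter of under 5% mt- UMIs and over 2500 genes (8 of 86, beside 12.8%). That filter selects on the mitochondrial share itself and left 57 CD150-high CD48-low cells. The nuclear subunit ratio was 0.900 beside a median of 0.936 for all genes in the former, and 0.887 beside 0.995 in the latter. At 1.5-fold 3 of 86 were lower, beside 8.996%, and with the mean of each cell's own CPM 24 of 86 were, beside 23.0%. Among the 76 subunits 29 were lower and 1 higher, and their median ratio was 0.802 beside 0.915 for all genes. The ratio was below 1 in 73 of the 76, in both libraries for 68, as for 3890 and 3194 of all 6247 genes. When ratios were divided by the median of all genes, 21 nuclear members were lower and 1 higher, beside 18.7% and 17.6% of all genes.

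**Figure D3:**
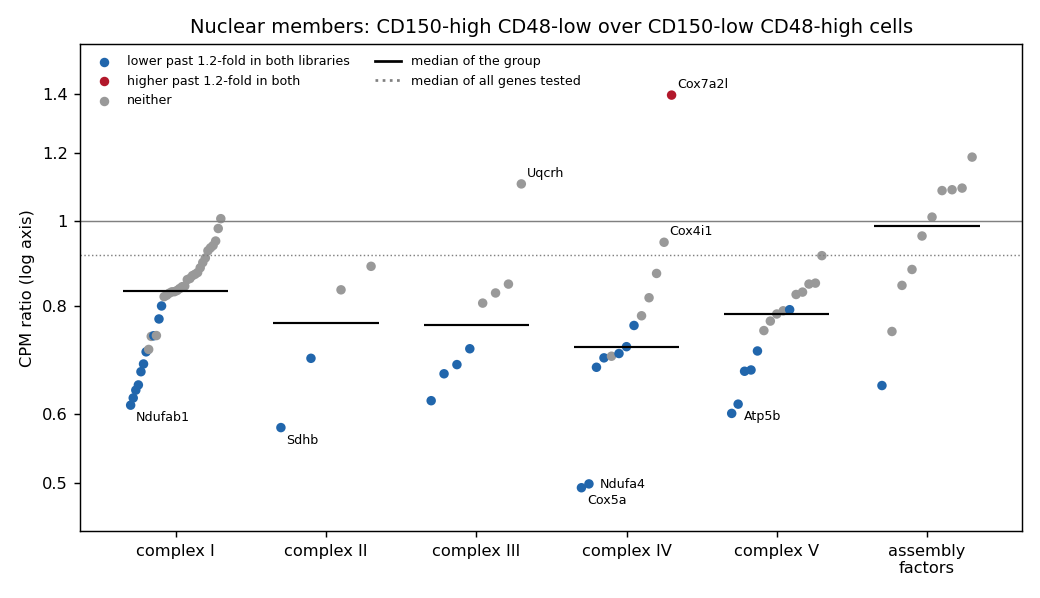
Ratio of CPM in CD150-high CD48-low over CD150-low CD48-high cells (y axis, log scale) for the 86 nuclear members tested, by complex (x axis) and sorted within each, coloured by call. Group medians (black lines) were 0.832, 0.765, 0.760, 0.718 and 0.783 for complexes I to V and 0.987 for assembly factors, with the median of all genes at 0.915 (dotted); Cox7a2l, at 1.40, lies at 0.987 on the scale of UMIs per cell.

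Complex I, NADH dehydrogenase, had 36 nuclear subunits tested, of which 10 (27.8%) were called lower, close to the 24.5% of all genes. Their summed level was 5176 CPM against 6267 (ratio 0.826, with 0.895 and 0.796 by suffix). The lowest was Ndufab1 (chr7:122085403-122101886), the acyl carrier protein of mitochondria, at 180 CPM in suffix 1 and 142 in suffix 2 against 250 and 249 (ratio 0.615, 0.578 to 0.653). At the other end, Ndufa6 (1.01), Ndufa13 (0.981) and Ndufa7 (0.949) lay within 1.2-fold of the reference in both libraries. Ndufv1 and Ndufv2, which form the NADH-oxidising tip of the enzyme, were both called lower (0.627 and 0.739). Ndufs7, which lies next to the quinone site, was not called (0.932), and neither were Ndufv3 (0.908), Ndufs1 (0.860) and Ndufs8 (0.738). These subunits were picked after their values were seen.

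In complex II, succinate dehydrogenase, 2 of the 4 genes were called lower, beside 24.5% of all genes. All 4 ratios were below 1 in both libraries, as were those of 3194 of all 6247 genes. Sdhb (chr4:140961203-140979193), the iron-sulfur subunit, stood at 109 and 81.8 CPM against 156 and 155, a ratio of 0.579 (0.535 to 0.627). Sdhd, a membrane anchor, stood at 126 and 106 CPM against 160 and 161 (ratio 0.696). Sdhc, the other anchor (0.834, with 0.983 and 0.771 by suffix), and Sdha, the flavoprotein (0.888), were not called.

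In complex III, 4 of the 8 subunits were called lower, beside 24.5% of all genes, and the sum was 1912 CPM against 2249 (ratio 0.850). Uqcrc1, a core protein, stood at 131 and 97.2 CPM against 171 and 173 (ratio 0.622). Uqcrfs1, the Rieske iron-sulfur protein that carries electrons towards cytochrome c1, was also called lower (0.714). Uqcrh, the hinge protein, lay above the reference, at 647 and 712 CPM against 619 and 632 (ratio 1.10, 1.07 to 1.14), and was not called.

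Complex IV, cytochrome c oxidase, held both the lowest and the highest ratios among the nuclear subunits tested. Of its 13 tested subunits 7 were lower and 1 higher, beside 24.5% and 12.1% of all genes. Cox5a (chr9:57521274-57532426), a subunit of the matrix side, stood at 248 CPM in suffix 1 and 223 in suffix 2 against 458 and 471. Its ratio was 0.494 (0.470 to 0.519), and the level lay below the reference by a wide margin in both libraries. Ndufa4 (chr6:11900292-11907497), named as a complex I gene but found in complex IV, stood at 532 and 419 CPM against 1037 and 833, a ratio of 0.499 (0.482 to 0.517). Cox4i1, the subunit that can bind ATP, stood at 759 and 693 CPM against 745 and 758 (ratio 0.946) and overlapped with the reference.

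Cox7a2l (chr17:83501918-83517330) was the 1 nuclear member called higher. It stood at 663 CPM in suffix 1 and 749 in suffix 2 against 540 and 505, a ratio of 1.40 (1.36 to 1.44), with 1.23 and 1.48 by suffix. Per cell its ratio was 0.987. It was no longer called with cells that held a cycling marker UMI left out (ratio 1.18), with the mean of each cell's own CPM (1.31), with gates at the 50th percentiles (1.37), without the 5% of cells with most UMIs (1.35), or at 1.5-fold.

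In complex V, 6 of 15 tested subunits were lower, beside 24.5% of all genes. All 15 ratios were below 1 in both libraries, as were those of 3194 of all 6247 genes, and the sum was 5190 CPM against 6761 (ratio 0.768). Atp5b (chr10:128083273-128090391), the catalytic beta subunit, stood at 447 and 391 CPM against 646 and 670 (ratio 0.616, 0.594 to 0.640). The row named Atp5o.1 stood at 216 and 172 CPM against 295 and 314 (ratio 0.601), while the row Atp5o held 0 UMIs. In GENCODE vM21, 2 overlapping gene models on the minus strand carry this symbol, chr16:91684398-91926982 and chr16:91925214-91931687, and the matrix does not show which row is which.

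Assembly factors, which build the complexes without being part of them, had ratios from 0.648 to 1.19 with a median of 0.987. Of 10 tested, Ndufaf6 was called lower (15.5 and 15.9 CPM against 23.6 and 24.9, ratio 0.648) and 0 higher, beside 24.5% and 12.1% of all genes. Ndufaf2 (0.747) and Ndufaf4 (0.844) were not called, and the highest ratio was that of Sdhaf2. Their sum had a ratio of 0.964 (0.929 to 1.0005), 0.999 in suffix 1 and 0.947 in suffix 2, above the median of all genes. Atp5s, at 17.9 CPM, was too low to be tested.

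The balance of the 2 genomes moved in each complex that both build. Mitochondrial UMIs per nuclear UMI were 1.73 in CD150-high CD48-low cells and 1.49 in the reference for complex I, 3.61 and 2.60 for complex III, 7.60 and 5.00 for complex IV, and 2.69 and 1.75 for complex V. In each of these the values of both libraries lay above both of the reference. The distance was smallest in complex I, where the libraries differed in the direction of the mitochondrial sum itself: 9613 CPM against 9232 in suffix 1 and 8696 against 9419 in suffix 2.

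In CD150-low CD48-low cells 29 of the 86 nuclear members were lower and 0 higher, against 19% and 10.8% of all genes. Their nuclear subunits had a summed ratio of 0.830 (0.858 and 0.805 by suffix) and their mitochondrial genes of 1.13 (1.12 and 1.14), with 0 of 13 called. Cox5a (0.558) and Ndufa4 (0.602) were again the lowest. In CD150-high CD48-high cells 2 nuclear members were lower, Sdhb (0.730) and Ndufa4 (0.728), and 1 higher, the complex II assembly factor Sdhaf1 (1.203), against 4.85% and 6.53% of all genes. The summed nuclear ratio there was 0.990 in suffix 1 and 0.840 in suffix 2, so the libraries disagreed on its size, and the mitochondrial ratio was 1.04 and 1.12.

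**Figure D4:**
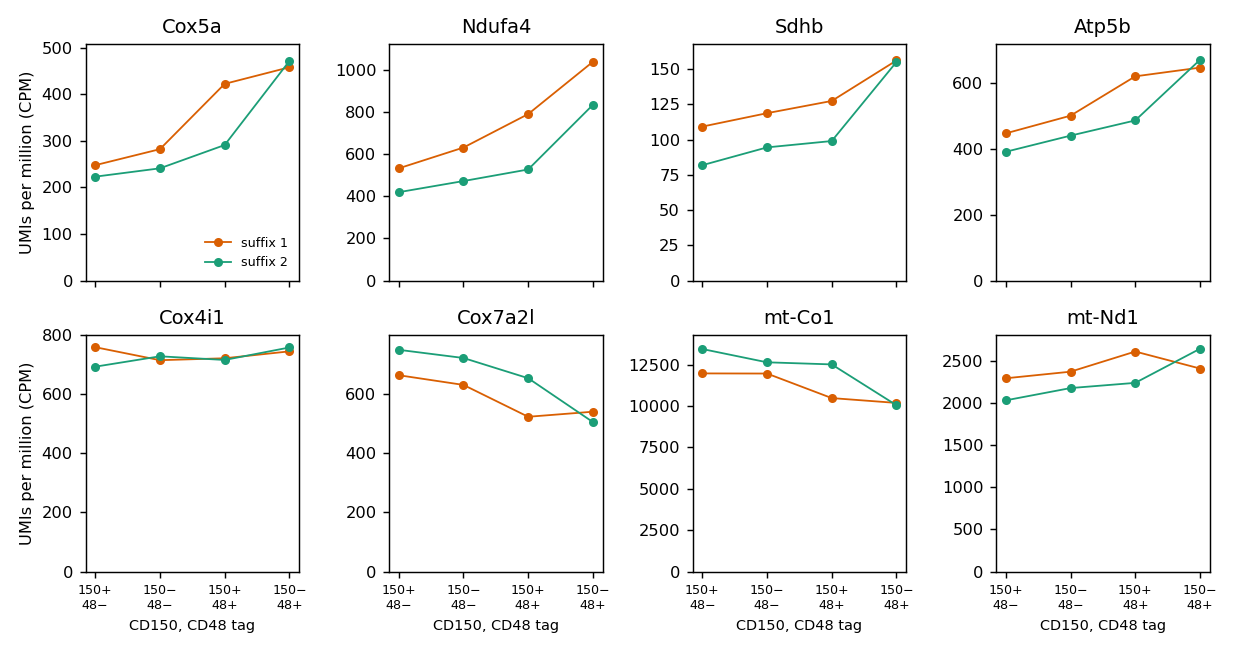
Level (y axis, CPM, from 0) of 8 members over the 4 tag gates (x axis, CD150 and CD48 tag high or low) in each barcode suffix. Cox5a, Ndufa4, Sdhb and Atp5b are lowest in CD150-high CD48-low and highest in CD150-low CD48-high cells in both suffixes, Cox4i1 stays between 693 and 759 CPM, and Cox7a2l and mt-Co1 are highest in CD150-high CD48-low cells; per cell, and not per UMI, Cox7a2l and the mitochondrial sum were lower there than in the reference.

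The paralogue groups of the chain were carried by their widely expressed members. Cox8a, Cox7a2, Cox7b, Cox6a1 and Cox4i1 were seen in 3982, 3844, 3846, 3488 and 3984 of the 3986 cells, whereas the muscle and other tissue forms had few UMIs. Cox8b, a heart and muscle form, had 0 UMIs in all 3986 cells, which allows a share of cells with a UMI of up to 0.0753% by a floor of 3 counts and 0.0925% by the exact interval. Cox8c had 1 UMI, Ndufa4l2 5 and Cox7b2 11, and Cox7a1 59. Cox4i2, an oxygen-responsive form known from lung, stood at 5.32 CPM in CD150-high CD48-low and 3.96 CPM in the reference, and its ratio of 1.34 had an interval that included 1 (0.931 to 1.90).

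Cox6b2, known from testis, was the exception. It was seen in 1603 cells and stood at 36.4 and 27.0 CPM in CD150-high CD48-low cells against 35.7 and 46.5 in the reference. The ratio was 1.02 in suffix 1 and 0.579 in suffix 2, so the libraries differed in direction. Its partner Cox6b1 stood at 327 and 299 CPM against 386 and 399 (ratio 0.779). The 3 genes for the identical mature c subunit of the ATP synthase rotor were unequal: Atp5g1 (0.675) and Atp5g3 (0.672) were called lower, and Atp5g2 (0.829) was not.

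Cox6a2 (chr7:128205435-128206387), the heart and muscle form of subunit 6a, was found almost wholly in the reference gate. It had 216 UMIs in 90 of the 2527 reference cells (3.56%, exact interval 2.87% to 4.36%), 1 UMI in CD150-high CD48-high cells and 0 in the others. Against a floor of 3 UMIs over the gate, its level was at least 11.2-fold lower in CD150-high CD48-low and at least 8.03-fold lower in CD150-low CD48-low cells. This floor leaves out the counting error of the reference, and with it the exact upper limits of the ratios were 0.111 and 0.154. The values in the reference were 3.91 CPM in suffix 1 and 4.77 in suffix 2. Cox6a1, its widely expressed partner, stood at 145 and 131 CPM against 192 and 195 (ratio 0.697).

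The 90 reference cells with a Cox6a2 UMI, chosen after its values were seen, were compared with the 2437 without. Dntt, the terminal transferase of early lymphoid cells, had a UMI in 94.4% of the former (87.5% to 98.2%) and 39.1% of the latter. Il7r was seen in 36.7% and 1.44%, Flt3 in 100% and 73.2%, and the cycling marker Mki67 in 70.0% and 29.7%. The myeloid markers Mpo (78.9% and 40.1%) and Ctsg (62.2% and 19.1%) were also seen more often. Levels were higher for Dntt (1553 against 245 CPM), Il7r (48.2 against 2.10 CPM), Mpo (551 against 223 CPM) and Ctsg (435 against 145 CPM), while Elane, the third myeloid marker, was at 34.0 against 33.1 CPM. The former cells were deeper, with a median of 31074.5 UMIs against 16021, and the part of depth in these shares was not tested.

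Other genes of mitochondrial metabolism were counted by list, to be read against the 24.5% of all genes called lower and 12.1% called higher. A list of 16 genes held those of the TCA cycle, which supplies NADH and succinate, and Pdha1, Pdhb and Dlat of pyruvate dehydrogenase. Of these 16, 8 (50%) were lower and 0 higher in CD150-high CD48-low cells (median ratio 0.783). Fh1, fumarate hydratase, had a ratio of 0.559, Mdh2, malate dehydrogenase, 0.663, and the isocitrate dehydrogenase subunits Idh3a and Idh3g 0.627 and 0.662, whereas Idh3b of the same enzyme lay at 1.13. Of 10 tested electron carrier genes 3 (30%) were lower and 1 higher (median 0.731), shares close to those of all genes. Cytochrome c (Cycs), which carries electrons from complex III to IV, stood at 50.9 CPM against 122, a ratio of 0.417 (0.375 to 0.462), further from 1 than any nuclear subunit tested. Cyc1, the cytochrome c1 of complex III, had a ratio of 0.633 and Etfb, which passes electrons from fat oxidation, 0.663. Coq9, of ubiquinone synthesis, was the 1 called higher (1.26).

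Among factors that express mitochondrial DNA, 2 of 7 tested (28.6%) were lower and 1 (14.3%) higher (median 0.891), close to all genes. Ssbp1, which binds single-stranded mitochondrial DNA, had a ratio of 0.649, and Slirp, which stabilises mitochondrial mRNAs, 0.765. Tfb2m, the transcription initiation factor, was the 1 called higher (1.30), and Tfam, which packages the DNA, lay at 0.891. Polrmt, the RNA polymerase, was too low to be tested. Of 75 tested genes of the mitochondrial ribosome 31 were lower and 2 higher (median 0.790). Mrpl18 was the lowest of them (0.506), and the 2 called higher were Mrpl52 (1.55) and Mrpl23 (1.22).

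Of 4 tested regulators of these genes 2 were lower. Nrf1, a transcription factor of nuclear respiratory genes, stood at 22.5 CPM against 37.9 (ratio 0.594), and Myc at 88.4 against 171 (0.518, with 0.806 and 0.387 by suffix). Of 7 tested complex IV assembly genes outside the symbol rule 0 were called in either direction (median 1.01). In the mitophagy list 2 of 5 were higher, Bnip3l (1.33) and Pink1 (1.24), and Phb2 was lower (0.703). Of 9 redox and uncoupling genes, the uncoupling protein gene Ucp2 was lower (0.487) and the peroxidase Prdx5 higher (1.46).

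A 250-base window upstream of the start was read from RefSeq (GRCm38.p6) for the 78 of 97 nuclear members with one, 83 windows in all, and searched on both strands for letters bound by NRF1 (GCATGCG) and by ETS factors such as GABP (CCGGAAG). The NRF1 letters were in 12.05% of the windows, against 3.02% of 32851 windows of all genes, and the ETS letters in 19.3% against 6.91%. The windows were not matched for base composition. The window of Sdhb, at chr4:140961021-140961270 on the plus strand, is shown because Sdhb is among the lowest members and holds the NRF1 letters, in capitals, which begin 54 bases before the end of the window. RefSeq and GENCODE place some starts differently: the end of this window, with the NRF1 letters, lies inside the GENCODE gene model of Sdhb given above, so the letters are upstream only of the RefSeq start.
Sdhb: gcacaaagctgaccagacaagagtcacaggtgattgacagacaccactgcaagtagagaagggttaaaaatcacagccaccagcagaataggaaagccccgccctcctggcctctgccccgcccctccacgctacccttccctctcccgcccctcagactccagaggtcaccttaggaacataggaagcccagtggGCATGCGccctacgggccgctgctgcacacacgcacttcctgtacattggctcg
The median ratio, over subunits and assembly factors together and with no test, was 0.843 for the 10 tested members with NRF1 letters and 0.808 for the 62 without, and 0.827 for the 15 with ETS letters and 0.817 for the 57 without. The windows of Cox5a and Cox7a2l held neither string, and that of Cox7a2l lies inside its GENCODE gene model. A match is a description of letters and not a bound site.

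Several other measures moved with the gates. All 5 cycling markers (Mki67, Top2a, Ube2c, Birc5 and Cdk1) were lower in CD150-high CD48-low cells, with a summed level of 68.6 CPM against 875. A UMI of any of them was found in 21.1% of CD150-high CD48-low, 24.0% of CD150-low CD48-low, 46.2% of CD150-high CD48-high and 59.0% of reference cells. The share in CD150-high CD48-low cells was 33.1% in suffix 1 and 15.7% in suffix 2, and in CD150-high CD48-high cells 66.5% and 28.6%. Cytosolic ribosomal protein genes took 32.3% of UMIs in CD150-high CD48-low cells and 28.1% in the reference.

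Within the reference, cells with a cycling marker UMI had 2.31% nuclear subunit and 5.64% mitochondrial UMIs, and cells without had 1.92% and 6.13%. Within CD150-high CD48-low cells the values were 1.81% and 6.52% with, and 1.73% and 6.68% without. Among cells without a cycling marker UMI, the mitochondrial ratio between these gates was 1.09 and the nuclear subunit ratio 0.900. Then 8 of 85 nuclear members were lower and 0 higher, beside 13.7% and 8.24% of all genes. The ratio of Cox5a moved from 0.494 to 0.689 and that of Ndufa4 from 0.499 to 0.660. A UMI of these markers is found more readily in a deep cell, and the median depth of reference cells was 22160 UMIs with and 13462.5 without.

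**Figure D5:**
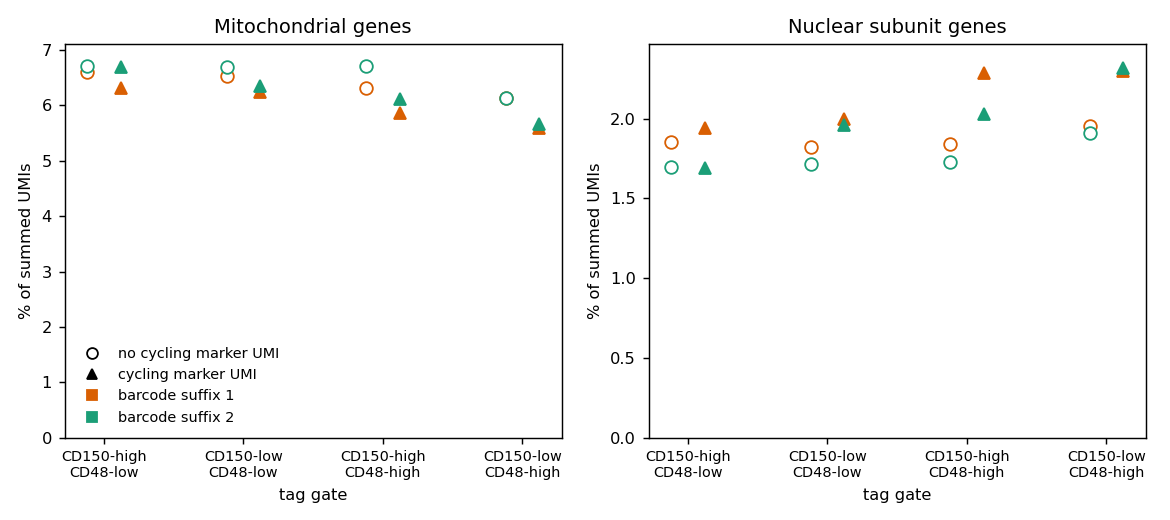
Share of summed UMIs (y axes, %, from 0) from the 13 mitochondrial genes (left) and 84 nuclear subunit genes (right) in cells with (triangles) and without (open circles) a UMI of the 5 cycling markers, by tag gate (x axis) and barcode suffix (colour). In the reference gate the nuclear share was 2.31% with and 1.92% without such a UMI and the mitochondrial share 5.64% and 6.13%; these are shares of UMIs, and per cell the mitochondrial sum was lower in CD150-high CD48-low cells than in the reference.

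Depth alone was examined in 4 bins of UMIs per cell, with the same limits in every gate. In the lowest bin (2945 to 12168.5 UMIs) the nuclear subunit share was 1.71% in 199 CD150-high CD48-low cells and 1.85% in 470 reference cells, and the mitochondrial share 6.74% and 6.37%. In the third bin (14968 to 21488.8 UMIs) the nuclear share was 1.79% in 150 cells and 2.09% in 660, and the mitochondrial share 6.57% and 5.92%. The directions were the same in the other bins, the highest of which held only 17 CD150-high CD48-low cells.

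The gates were checked against marker genes. The stem cell markers Pdzk1ip1, Procr and Mecom were higher in CD150-high CD48-low cells, with ratios of 7.61, 4.10 and 3.50, and Hlf (1.44) was not called. All 3 progenitor markers (Cd34, Flt3 and Cd48), all 3 myeloid markers (Mpo, Elane and Ctsg) and Dntt, the 1 lymphoid marker tested, were lower. Of the 2 tested erythroid or megakaryocyte markers 0 were called, and Pf4 changed direction between suffixes (4.23 and 0.664). Kit (135 CPM against 127) and Ly6a, the Sca-1 gene (471 against 272), which define LSK cells, were present in both gates. Of 8 markers of other cells, Cd3e and Cma1 had 0 UMIs, and only Igkc (57.2 against 3309 CPM) and Jchain (1.197 against 52.4 CPM) reached 20 CPM, both lower in CD150-high CD48-low cells. Leaving out the 12 cells with over 10% immunoglobulin UMIs gave a mitochondrial ratio of 1.15 and a nuclear ratio of 0.793. The part of these cell types in the nuclear and mitochondrial levels was otherwise not tested.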

How the data were processed

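LSK cells of young and old mice were profiled by CITE-Seq (Chromium Single Cell 3′ v3). The authors deposited raw UMI counts per gene and cell, made with Cell Ranger 3.1.0 (version also in the submitters' processing notes, which name mm10/GRCm38) and joined by its aggregation step, which equalises depth between libraries, so the original depths are not known here. The authors deposited tag values on a log10 scale, which were turned back into tag counts; a cell at 0 tags ranked lowest. The kept cells held 27073429 UMIs in suffix 1 and 43434366 in suffix 2.

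The members and gene lists were chosen with earlier results of these data known. UMI counts were summed over the cells of a gate and expressed as counts per 1e+06 UMIs (CPM). Ratios have exact conditional binomial intervals, levels exact Poisson intervals and shares of cells exact Clopper-Pearson intervals, all for counting error. UMIs of 1 cell are not replicates, and no p-value was computed. The call rule (1.2-fold in both libraries, at least 20 CPM) was tried on simulated Poisson counts. It called 100% of 50 genes raised 1.5-fold and 0.132% of 6047 unchanged genes. The simulation held counting error only, so it cannot show how often variation between cells or libraries passes the rule. Named genes were all mitochondrial members, the 6 lowest and 6 highest nuclear subunits, the fixed paralogue groups, the Sdh genes, called assembly factors, and members of 8 fixed lists that were called or named for their role. Other complex subunits were named after their values were seen. A longer form of the NRF1 letters was searched before the one reported. No doublet caller was run; the deepest cells were left out in an alternative. Other alternatives changed the cell filter, denominator, scaling, gates, libraries and call rule. The third tag, against CLCA3A1, was not used here. A marker gene of the stem cell list is not reported here. GENCODE vM21 holds 1 gene model for 108 of the 110 symbols. Python 3.11.15, numpy 2.4.6, scipy 1.17.1 and pandas 2.3.3 were used.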

Additional observations from a re-analysis of the deposited data

How the results depend on the processing

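These values compare CD150-high CD48-low with CD150-low CD48-high cells, where the reported mitochondrial ratio was 1.15, the nuclear subunit ratio 0.796, and 30 nuclear members were lower and 1 higher. The nuclear ratio stayed below 1 under all 14 alternatives that recompute it. The median of all genes was also below 1 wherever it was not the divisor. It was 0.646 with mean UMIs per cell and 0.936 without cells with a cycling marker UMI. The nuclear ratio lay below this median under each alternative. The mitochondrial ratio stayed above 1 under 13 and reversed to 0.811 with mean UMIs per cell, where the nuclear ratio was 0.562, 83 members were lower and 0 higher (75.8% and 2.71% of all genes), and Cox7a2l reversed to 0.987. Among alternative cell filters, no mt- limit gave a mitochondrial ratio of 1.19. Cells under 5% mt- UMIs with over 2500 genes, 57 of them CD150-high CD48-low, gave 1.03 and 0.887, with 8 lower and 2 higher beside 12.8% and 15.1% of all genes. Nuclear UMIs as denominator gave 1.16 and 0.804, UMIs without ribosomal protein genes 1.22 and 0.845, division by the median of all genes 1.26 and 0.870, and the mean of each cell's own CPM 1.13 and 0.827, with 24 lower and 0 higher beside 23.0% and 9.73% of all genes. The 50th percentile of both tags gave a nuclear ratio of 0.809 with 0 higher, and the 90th and 10th percentiles 1.13 and 0.817. Without cells with a cycling marker UMI the ratios were 1.09 and 0.900, with 8 lower and 0 higher. Without the 5% of cells with most UMIs they were 1.13 and 0.816, with 0 higher. Suffix 1 alone gave 1.13 and 0.856 with 30 lower and 2 higher (28.9% and 16.7% of all genes), and suffix 2 alone 1.16 and 0.771 with 62 lower and 2 higher (40.2% and 18.2% of all genes). A fold of 1.5 in both libraries left 3 of 86 lower and 0 higher, beside 8.996% and 4.59% of all genes, so the excess of lower members was lost, and 1.2-fold in the sum of both libraries gave 51 lower, beside 37.1%. Cox5a and Ndufa4 stayed below 1 under every alternative, up to 0.689 and 0.660 without cells with a cycling marker UMI. The cause of these shifts was not tested.

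Gates were compared within each library by the ratios of each suffix. No test was run over the 2 libraries, and the labels give no replicate numbers.

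The main limits are the single library per age, the unknown age of each suffix, tag cuts that differ between suffixes (CD150 at 40 and 407 tags), and the cell filter, which acts on the 13 mitochondrial members themselves since they are all the mt- genes in the matrix. UMI counts do not measure RNA per cell, protein or respiration.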

Other observations

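The mt- limit removed unequal shares of cells from the gates. With the same tag limits and over 1500 genes, 67 of 622 CD150-high CD48-low cells were at or over 10% mt- UMIs (10.8%, exact interval 8.45% to 13.5%), 65 of 519 CD150-low CD48-low cells (12.5%), 55 of 505 CD150-high CD48-high cells (10.9%) and 151 of 2678 reference cells (5.64%, 4.80% to 6.58%). The reference had the lowest share in each suffix, 4.90% in suffix 1 and 6.05% in suffix 2, against 8.02% and 11.95% in CD150-high CD48-low cells.

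In all, 345 cells with over 1500 genes were at or over the limit. Their median mitochondrial share was 18.3% and their median depth 5604 UMIs, against 14968 in the kept cells. Nuclear subunits took 1.94% of their nuclear UMIs, against 2.23% in the kept cells.

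The 82 kept cells without tag values, which enter no gate, had a median mitochondrial share of 6.57%, a median depth of 10143.5 UMIs and a nuclear subunit share of 1.89%.

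Across the libraries of each gate, the CD150-high CD48-high cells stood furthest apart: suffix 1 had a median depth of 19922 UMIs and 2.18% nuclear subunit UMIs, and suffix 2 had 15595 and 1.85%. The cause was not tested.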
